A study of Mus musculus with 3 samples.

Results

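Neutrophils in metastasis-bearing mouse brains were taken as the cells of cluster 7 in the authors' deposited metadata. They were 112 of the 9581 cells from metastasis-bearing brains and of 13455 cells in the whole series. Of these 112 barcodes, 18 also stand in the metadata of the naive brains, which leaves 94 cells without them. The study took brain cells enriched on percoll from female C57Bl/6 mice aged 2 to 3 months, 1 hemisphere per mouse, and read their RNA together with 35 surface antibody tags. Brains were metastasis-bearing, about 2 weeks after a carotid injection of E0771, a mouse mammary tumour line, or naive, without metastases. In each state 2 mice were homozygous (Cx3cr1-/-) and 2 heterozygous (Cx3cr1+/-) for loss of Cx3cr1, the receptor for fractalkine, so every mouse lacked at least 1 working copy and no wild-type mouse was measured. The labels do not say which part of the gene is lost. All 8 brains were pooled in 1 preparation and told apart by hashtags, so a brain is the replicate here, with n = 2 per genotype and state.

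Neutrophils are short-lived granulocytes made in the bone marrow. As they mature they switch on granule genes in waves, first the proteases of the primary granules in progenitors, then the antimicrobial proteins of the secondary granules, and they lose these transcripts once released into the blood. S100a8 and S100a9, the subunits of calprotectin, are abundant throughout. Neutrophils enter inflamed or tumour-bearing tissue through Cxcr2, the receptor for Cxcl2, and there they can express Il1b and chemokines.

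Sequences of 3 kinds are shown. The first are the tags of the antibodies behind the surface gate used below, shown because the gate is a protein readout that the RNA clusters did not use.
Ly6G: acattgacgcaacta
Ly6C: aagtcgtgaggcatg
CD11b: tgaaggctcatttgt
The second are the hashtags that assign each cell to a metastasis-bearing brain.
Homozygous brain 1: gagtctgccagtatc
Homozygous brain 2: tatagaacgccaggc
Heterozygous brain 1: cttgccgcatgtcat
Heterozygous brain 2: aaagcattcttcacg
The third are promoters. Camp, Ngp and Ltf are the secondary granule genes that divide the cluster (see the plot of single cells), and the 250 bases before the start of each gene are given from RefSeq, build GRCm38.p6, 5′ to 3′ on the gene's strand. Capitals mark matches on either strand to TTGCNNAA, a form of the C/EBP motif, whose family member C/EBP epsilon is required for secondary granule genes in mice.
Camp (chr9:109849457-109849706, minus strand): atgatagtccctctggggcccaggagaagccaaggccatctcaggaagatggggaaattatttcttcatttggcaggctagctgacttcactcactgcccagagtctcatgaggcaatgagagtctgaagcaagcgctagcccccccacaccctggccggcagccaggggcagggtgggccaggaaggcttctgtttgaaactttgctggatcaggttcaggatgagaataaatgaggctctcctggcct
Ngp (chr9:110419558-110419807, plus strand): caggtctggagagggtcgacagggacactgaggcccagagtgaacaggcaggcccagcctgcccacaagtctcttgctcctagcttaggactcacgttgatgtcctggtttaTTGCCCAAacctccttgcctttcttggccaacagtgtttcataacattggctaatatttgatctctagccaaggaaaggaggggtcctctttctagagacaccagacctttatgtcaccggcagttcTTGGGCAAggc
Ltf (chr9:111019042-111019291, plus strand): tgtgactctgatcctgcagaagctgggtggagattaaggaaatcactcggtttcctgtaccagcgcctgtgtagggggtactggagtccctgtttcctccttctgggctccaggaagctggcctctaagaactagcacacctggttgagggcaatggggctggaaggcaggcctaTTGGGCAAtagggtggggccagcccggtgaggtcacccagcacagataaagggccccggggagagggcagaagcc
Ngp held 2 matches, Ltf held 1 and Camp held 0 in this window. Among 32851 promoters of the same length, 9.56% held at least 1. The 3 genes lie on chromosome 9, as does Cx3cr1 (chr9:120048683-120068296), at start-to-start distances of 10.2 Mb for Camp, 9.63 Mb for Ngp and 9.03 Mb for Ltf.

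The label was checked against 5 neutrophil markers. S100a8 reached 55964 CPM (summed depth-corrected UMIs, the molecules counted by their barcodes, scaled to a total of 1000000) and S100a9 reached 67307 CPM in the cluster, against 199 and 212 CPM in all other cells of the table. Both were found in 110 of the 112 cells (98.2%). Camp and Ngp, antimicrobial proteins of the secondary granules, stood at 6769 and 6752 CPM, against 18.3 and 21.99 CPM in all other cells, but each was found in 22 cells (19.6%). Ly6g, which encodes the neutrophil surface protein Ly6G, stood at 196 CPM against 1.01 CPM in all other cells and was found in 28 cells (25%). These levels describe the cluster and were not tested, since clustering used these genes. In cluster 2, read as T cells, 4.58% of cells had an S100a8 UMI and 0.465% an Ngp UMI. Its median raw depth was 5443 UMIs per cell, against 3293 in the neutrophil cluster. Of its cells 84.3% also had a UMI of Tyrobp, used below to mark myeloid clusters, so this background may not be of T cells alone. The label thus fits calprotectin in nearly every cell and the granule genes in a minority.

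**Figure D1:**
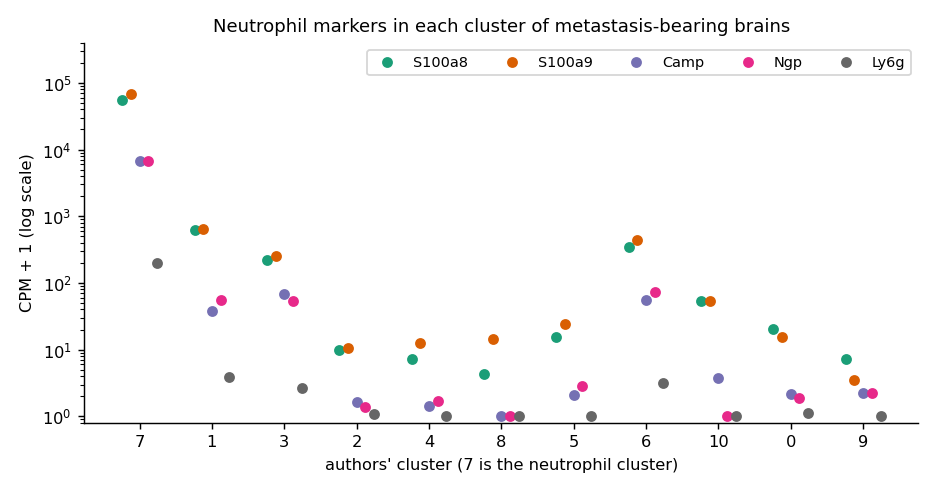
CPM plus 1 (log axis) of S100a8, S100a9, Camp, Ngp and Ly6g in each of the authors' clusters, 1 point per gene over all cells of the cluster. Cluster 7 is left, where S100a8 stands at 55964 CPM and Ly6g at 196 CPM, and every other cluster lies lower for each of the 5 genes.

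The 10 genes with the highest ratio of the cluster to all other cells, among those above 500 CPM in it, were Elane, Camp, S100a9, Ngp, S100a8, Stfa2l1, Retnlg, Ltf, Wfdc21 and G0s2. Elane, the neutrophil elastase of primary granules, led with 800 CPM against 0.574 CPM, but only 2 cells held it. Retnlg, a resistin-like secreted protein of mouse neutrophils, had 6289.7 CPM against 26.3 CPM in all other cells. G0s2, an inhibitor of the lipase Pnpla2, had 3319 CPM against 20.5 CPM. Stfa2l1 belongs to the stefin A genes, protease inhibitors with near-identical copies between which reads may be split, and had 696 CPM against 2.84 CPM. Among the most abundant transcripts of the cluster were also Il1b (interleukin 1 beta) at 13202 CPM and Cxcl2 (a chemokine that attracts neutrophils) at 12223 CPM, against 1435 and 1099 CPM in all other cells. In monocytes and macrophages (cluster 1), the nearest myeloid cells, they stood at 5401 and 4134 CPM.

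The surface gate gave a readout that the rule did not use. Of the 112 neutrophils, 91 (81.3%, exact 95% interval 72.8 to 88.0%) lay in the authors' Ly6C+Ly6G+ gate, against 82 of 9469 other cells (0.866%). Without the barcodes of the naive metadata this was 74 of 94 cells. By brain, 22 of 23 and 14 of 21 neutrophils lay in the gate in homozygous brains 1 and 2, and 32 of 38 and 23 of 30 in heterozygous brains 1 and 2. Another 17 neutrophils carried no myeloid subtype in the gates, 15 of them in the gate of CD45 low, CD11b positive cells. The gate as a whole held 173 cells, of which 52.6% were in the neutrophil cluster and 74 were in the monocyte and macrophage cluster. Those 74 cells had 12174 CPM of S100a8 and 187 CPM of Cxcr2, against 204 and 2.85 CPM in the 2147 ungated cells of the same cluster. By brain S100a8 in the gated cells was 6028 and 25104 CPM in homozygous brains 1 and 2 and 13131 and 5491 CPM in heterozygous brains 1 and 2. Without homozygous brain 2, the highest, it was 6588 CPM, against 181 CPM in the ungated cells. They also had 1114 CPM of Ly6c2 and 481 CPM of Ccr2, both monocyte genes, against 1262 and 452 CPM in the ungated cells. Their median raw depth was 19024 UMIs against 12746, and whether droplets with a neutrophil and a monocyte account for any of them was not tested.

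Markers of other cell types were low in the cluster. Summed over each list, monocyte markers came to 585 CPM (363 to 1278 CPM by brain), macrophage markers to 466 CPM, microglia markers to 183 CPM and T cell markers to 26.3 CPM. In the monocyte and macrophage cluster the monocyte list came to 2911 to 4095 CPM by brain. NK markers came to 594 CPM in homozygous brain 2, against 0, 2.50 and 9.64 CPM in homozygous brain 1 and heterozygous brains 1 and 2. Basophil and mast cell markers came to 679 and 164 CPM in heterozygous brains 1 and 2 and were at 0 in both homozygous brains. Of the dendritic cell markers Flt3, Xcr1, Clec9a and Cd209a were at 0. Shallow cells limit this check. In 99 of 112 cells the deposited values had more genes above 0 than the raw data, so the depth correction can raise a 0. Low levels are read as background, such as 275 CPM of the choroid plexus gene Ttr, found in 66.1% of neutrophils and 57.1% of cluster 2 cells.

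The neutrophils were not 1 uniform population. By their summed corrected UMIs of Camp, Ngp and Ltf, 17 cells had between 42 and 3225 (granule-gene cells) and 91 had between 0 and 3 (Il1b-high cells). A further 2 cells, both from heterozygous brain 1, had 399 and 543 UMIs of Elane, and 2 cells had 28 and 112 UMIs of Mcpt8, a basophil protease. The division was made after the values were seen, with 10 UMIs as the limit, so it is described and not tested. No granule-gene or Il1b-high cell lay between 3 and 42 UMIs.

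**Figure D2:**
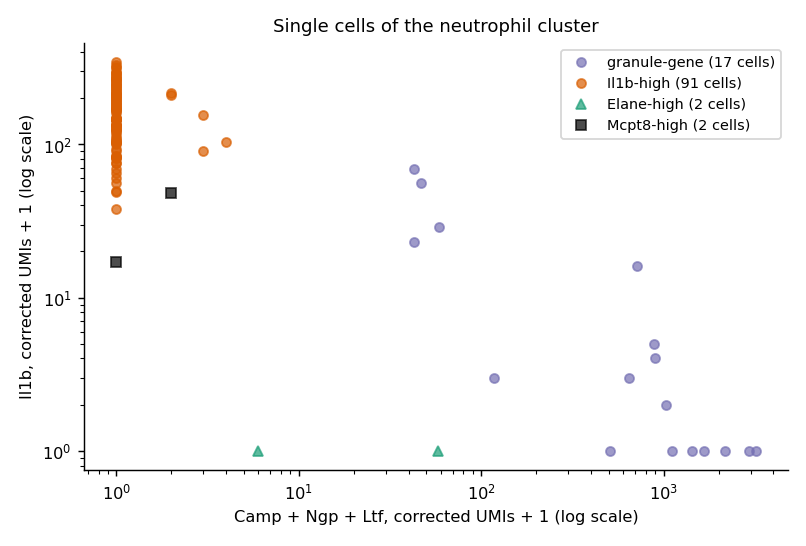
Each point is a cell of the neutrophil cluster, with the summed corrected UMIs of Camp, Ngp and Ltf plus 1 on the x axis and of Il1b plus 1 on the y axis (both log scales). The 17 granule-gene cells lie to the right at 42 or more UMIs and the 91 Il1b-high cells at the left between 37 and 344 UMIs of Il1b.

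The 17 granule-gene cells carried the secondary granule programme at high levels. Camp stood at 38332 CPM, Ngp at 38497 CPM and Ltf (lactoferrin) at 8054 CPM, against 3.26, 6.52 and 0 CPM in Il1b-high cells. Lcn2 (lipocalin 2, which binds bacterial siderophores) had 16244 CPM against 1023 CPM, and Cd177, a surface protein of neutrophil granules, had 931 CPM against 16.3 CPM. S100a8 ran from 1466 to 4056 UMIs per granule-gene cell and from 1 to 1528 in Il1b-high cells. Cybb, the catalytic subunit of the NADPH oxidase, and Lyz2 (lysozyme) were likewise higher, at 1125 and 8709 CPM against 76.0 and 1139 CPM. Ly6g transcripts were found in all 17 granule-gene cells and in 11 of 91 Il1b-high cells, while the Ly6C+Ly6G+ surface gate held 13 of 17 and 78 of 91. The protein gate thus took up cells without Ly6g transcripts in this table. Median raw depth was 10317 UMIs in granule-gene cells and 3119 UMIs in Il1b-high cells.

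Within the granule-gene cells, 12 had at least 212 UMIs of Camp and 5 had at most 7. The 12 Camp-high cells had 165 CPM of Il1b, 98.8 CPM of Cxcr2 and 356 CPM of Cebpe, the gene of C/EBP epsilon. The 5 Camp-low cells had 3215 CPM of Il1b, 386 CPM of Cxcr2 and no Cebpe UMI, with 37 to 104 UMIs of Ngp and 42288 CPM of Retnlg. They therefore stood between the Camp-high and the Il1b-high cells for Ngp, Il1b and Cxcr2 and above the Camp-high cells (7517 CPM) for Retnlg.

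The 91 Il1b-high cells carried the cytokine and receptor genes. Il1b had 16596 CPM and Cxcl2 15276 CPM, against 969.8 and 1571 CPM in granule-gene cells. Ptgs2 (cyclooxygenase 2) had 1309 CPM against 63.0 CPM and Ccrl2, a receptor that presents chemerin, had 1997 CPM against 92.1 CPM. Of the surface receptors, Csf3r, which binds the growth factor G-CSF, had 860.3 CPM against 131 CPM, Cxcr2 had 466 CPM against 175 CPM and Cxcr4 had 270.5 CPM against 24.2 CPM. Nfkbia, an inhibitor and target of NF-kappaB, had 6936 CPM against 626 CPM, and Mcl1, a survival protein, had 3284 CPM against 659 CPM. S100a8 and S100a9 took up 179625 and 203570 CPM in granule-gene cells, against 30636 and 40042 CPM in Il1b-high cells. On a fixed total this lowers the CPM of other genes in granule-gene cells. How much of the smaller gaps, such as that of Cxcr2, it makes up was not tested.

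The rarest cells stood apart from both. The 2 Elane-high cells had 34354 CPM of Elane, 29176 CPM of Prtn3 and 14879.6 CPM of Mpo, the proteases and peroxidase of primary granules, with no Il1b, Cxcr2 or Ly6g UMI. Both were in the Ly6CHigh gate. The 2 Mcpt8-high cells had 0 UMIs of S100a8 and S100a9 and UMIs of Prss34, Cpa3, Ms4a2 and Fcer1a, all basophil or mast cell genes. They are members of the cluster by the rule, but the neutrophil markers do not describe them.

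By brain, granule-gene cells were 1 of 23 neutrophils in homozygous brain 1, 5 of 21 in homozygous brain 2, 5 of 38 in heterozygous brain 1 and 6 of 30 in heterozygous brain 2. The share in homozygous brain 1 was 4.35% (exact 95% interval 0.110 to 21.9%), and the intervals of all 4 brains overlap. Accordingly Camp had 29.9 and 13101 CPM in homozygous brains 1 and 2, against 6156 and 7936 CPM in heterozygous brains 1 and 2. Ngp had 171 and 11697 CPM in homozygous brains, against 6251 and 8684 CPM in heterozygous brains. Homozygous brain 1 was the low one for both and homozygous brain 2 was the highest, so the genotypes overlap. Without the barcodes of the naive metadata Camp had 29.6 and 16204 CPM in homozygous brains, against 5394 and 8413 CPM in heterozygous brains.

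The share of neutrophils among all cells did not separate the genotypes. It was 0.672% (95% Wilson interval 0.448 to 1.01%) and 1.23% (0.805 to 1.87%) in homozygous brains 1 and 2, against 2.52% (1.84 to 3.44%) and 1.02% (0.716 to 1.45%) in heterozygous brains 1 and 2. Means were 0.95 ± 0.393% in homozygous and 1.77 ± 1.06% in heterozygous brains (SD, n = 2 each), a difference of -0.820 percentage points (two-sided exact permutation test, p = 0.667, where 0.333 is the smallest possible). Heterozygous brain 1 was the highest and the genotypes overlap. Of the cells in clusters where most cells carry Ptprc (CD45), the share was 1.90 ± 0.512% in homozygous and 2.43 ± 1.78% in heterozygous brains (SD, n = 2 each, exact p = 1). Fewer neutrophils and more of the other captured cells cannot be told apart in such shares.

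**Figure D3:**
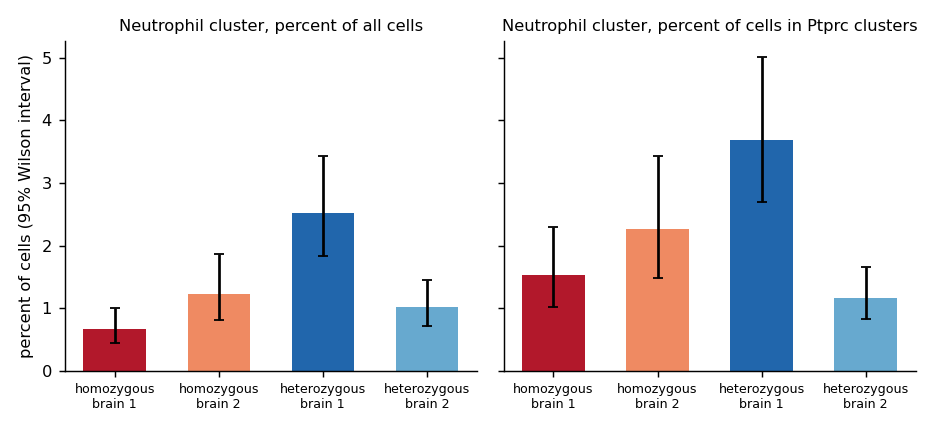
Neutrophils as a percent of all cells (left) and of cells in Ptprc clusters (right) in the 4 metastasis-bearing brains, with bars for the share and lines for its 95% Wilson interval. Heterozygous brain 1 is highest in both panels, at 2.52% and 3.68%, and the genotypes overlap.

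Cells with a UMI of at least 3 of the 5 markers were counted to set metastasis-bearing against naive brains, since the 2 states were clustered separately. They were 0.171, 1.09, 0.812 and 0.383% of cells in metastasis-bearing homozygous brains 1 and 2 and heterozygous brains 1 and 2, against 0.593, 0.331, 0.522 and 1.30% in the naive brains in the same order. Means were 0.615 ± 0.416% in metastasis-bearing and 0.688 ± 0.425% in naive brains (SD, n = 4 each), a difference of -0.0726 percentage points (two-sided exact permutation test, p = 0.857). With the shared barcodes kept, means were 0.752 ± 0.400% in metastasis-bearing and 0.899 ± 0.710% in naive brains (SD, n = 4 each). The states overlap, and the values were depth-corrected separately in each table. This count misses most of the cluster: 32 of its 112 cells met it, since 78 cells held 2 of the 5 markers. By the authors' gates on Ly6C and Ly6G, an alternative chosen after seeing the data, the share was 1.63 ± 0.602% in metastasis-bearing and 0.872 ± 0.714% in naive brains (SD, n = 4 each, exact p = 0.171). The gate carries a different label in each table, and whether both used the same limits is not stated.

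The naive table touches the neutrophils in another way. All 18 shared barcodes of the cluster lay in cluster 2 of the naive table and 17 of them in its Ly6C and Ly6G gate. Their median hashtag count was 1524.5 UMIs for the metastasis hashtags and 31.5 for the naive hashtags, and the metastasis count was higher in 17 of 18. Shared barcodes made up 16.1% of the neutrophils and 11.8% of the other cells of the table.

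Cx3cr1 itself was near 0 in neutrophils of every brain, at 8.54 and 4.33 CPM in homozygous brains 1 and 2, against 4.99 and 6.42 CPM in heterozygous brains 1 and 2. Only 5 cells held a UMI. The labels were checked in microglia (cluster 3) instead, where Cx3cr1 had 225 and 205 CPM in homozygous brains, against 1351 and 1299 CPM in heterozygous brains. There the genotypes do not overlap.

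Genotype was tested across the 1448 genes with a mean above 100 CPM in the neutrophils, as homozygous minus heterozygous with limma on log2(CPM + 50). No gene passed an adjusted p of 0.05, so 0% were called, and 57 genes (3.94%) had an unadjusted p under 0.05. Both homozygous brains lay above both heterozygous brains for 16.2% of genes and below them for 11.3%. The median log2 change of all genes tested was 0.03. Fold changes here are on the log2(CPM + 50) scale and understate the change of low genes. The count rests on all 4 brains: it was 1 without homozygous brain 1, 4 without homozygous brain 2, 16 without heterozygous brain 1 and 22 without heterozygous brain 2, where the lone brain of a genotype is assumed to vary like the other pair.

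The 10 genes with the smallest p were Fosb, Ifit2, Tnf, Gm5483, Stfa1, Ifi204, Jmjd1c, Ctss, Xist and Ly6a. Fosb, a subunit of the AP-1 transcription factor that responds to stimulation, had 175 and 143 CPM in homozygous brains 1 and 2, against 537 and 619.9 CPM in heterozygous brains (log2 change -1.59, SE 0.23, limma adjusted p = 0.216). Both heterozygous brains were high and the genotypes do not overlap. Tnf (tumour necrosis factor) had 397 and 308 CPM in homozygous brains, against 105 and 138 CPM in heterozygous brains (log2 change 1.23, SE 0.22, limma adjusted p = 0.273). Ifit2, an interferon-stimulated gene, had 401 and 169 CPM in homozygous brains, against 4.99 and 35.3 CPM in heterozygous brains (log2 change 2.20, SE 0.40, limma adjusted p = 0.273). Each of these separated the 4 brains without passing the threshold. Gm5483, a stefin A family gene, had 687 and 815 CPM in homozygous brains, against 277 and 257 CPM in heterozygous brains (limma adjusted p = 0.273). Its log2 change was 1.33, and 0.57 without the granule-gene, Elane-high and Mcpt8-high cells (limma adjusted p = 0.967). In Il1b-high cells Gm5483 had 721 and 425 CPM in homozygous brains, against 369 and 345 CPM in heterozygous brains. Stfa1, another member, had 320 and 108 CPM in homozygous brains and was at 0 in both heterozygous brains, but 5 cells of the cluster held it in all. Like Ifit2, Stfa1 and Ly6a passed the filter on low values through the homozygous brains alone, which fixes their sign. Ctss, the lysosomal protease cathepsin S, had 555 and 503 CPM in homozygous brains, against 185 and 276 CPM in heterozygous brains. Xist, the RNA of the inactive X chromosome, had 188 and 104 CPM in homozygous brains, against 414 and 302 CPM in heterozygous brains, in mice labelled female. Ifi204, Ly6a and Jmjd1c had log2 changes of 1.40, 1.00 and -1.07 with limma adjusted p between 0.584 and 0.693. With either heterozygous brain left out, Fosb, Ifit2 and Stfa1 passed the threshold, with the highest limma adjusted p at 0.0455. With homozygous brain 2 left out none of these 3 passed (limma adjusted p = 0.305, 0.168 and 0.240 for Fosb, Ifit2 and Stfa1), nor did Fosb without homozygous brain 1 (limma adjusted p = 0.483), where Ifit2 and Stfa1 did not reach the filter on low values. Gm5483 and Jmjd1c passed without heterozygous brain 1 and Ifi204 without heterozygous brain 2, and none of the 3 passed without a homozygous brain.

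**Figure D4:**
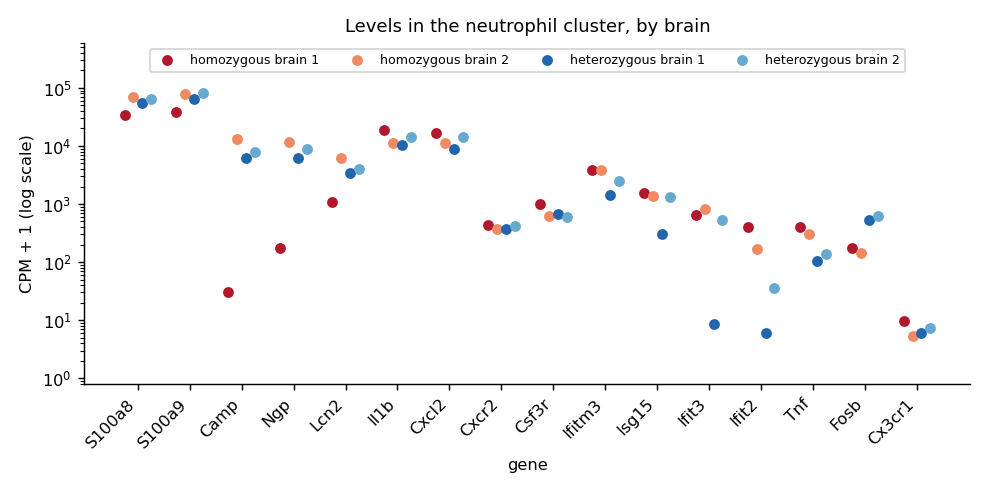
CPM plus 1 (log axis) of 16 genes in the neutrophil cluster, 1 point per brain, homozygous brains left of heterozygous ones. Camp and Ngp are low in homozygous brain 1 (29.9 and 171 CPM), Ifit3 and Isg15 are low in heterozygous brain 1 (7.49 and 299 CPM), Fosb is lower in both homozygous brains and Cx3cr1 is under 9 CPM in all 4.

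Of the 20 interferon-stimulated genes listed, antiviral effectors and sensors that type I and II interferons switch on, 18 passed the filter on low values. For Ifit2 and Oasl1 the mean lay above it in the homozygous brains alone. In Il1b-high cells Oasl1 had 161 and 164 CPM in homozygous brains, against 26.6 and 203 CPM in heterozygous brains 1 and 2. None of the 18 genes passed the test in either direction, and 17 had positive changes and 1 a negative one. Of all 1448 genes tested, 800 had positive changes. The 17 include Ifit2 and Oasl1, whose sign the filter fixed. Of the 18, 8 (against 16.2% of all genes) had both homozygous brains above both heterozygous ones. Their median log2 change was 0.87, against 0.03 over all genes tested. Ifitm3 had 3837 and 3844 CPM in homozygous brains 1 and 2, against 1437 and 2454 CPM in heterozygous brains 1 and 2 (log2 change 1.01, SE 0.34, limma adjusted p = 0.892). Isg15, a ubiquitin-like modifier, had 1562 and 1374 CPM in homozygous brains, against 299 and 1314 CPM in heterozygous brains. Ifit3 had 644 and 806 CPM in homozygous brains, against 7.49 and 527 CPM in heterozygous brains. Rsad2 (viperin), which like Ifit3 was chosen after its values were seen, had 913 and 1326 CPM in homozygous brains, against 200 and 1028 CPM in heterozygous brains. For Isg15, Ifit3 and Rsad2 heterozygous brain 1 was the low one and heterozygous brain 2 lay near or within the homozygous brains. Without heterozygous brain 1 the list's median was 0.09, and without heterozygous brain 2 it was 1.48. Ifitm1 and Ifitm2, the other abundant members, had log2 changes of 1.00 and -0.09.

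Cells within a brain differed as well. Over Isg15, Ifit1, Ifit2, Ifit3 and Rsad2, the summed corrected UMIs of the 91 Il1b-high cells ran up to 410. At least 10 such UMIs were found in 11 of 22 and 10 of 16 Il1b-high cells in homozygous brains 1 and 2, against 5 of 30 and 12 of 23 in heterozygous brains 1 and 2. The share in heterozygous brain 1 was 16.7% (exact 95% interval 5.64 to 34.7%), against 50, 62.5 and 52.2% in homozygous brains 1 and 2 and heterozygous brain 2, and its interval overlaps those of homozygous brain 1 and heterozygous brain 2. This limit of 10 was set after seeing the data, and 16 cells lay between 5 and 19 UMIs. Median raw depths of these cells were 3293 and 2796.5 UMIs in homozygous brains and 2954.5 and 3245 UMIs in heterozygous brains. Without the barcodes of the naive metadata the counts were 8 of 19 and 8 of 12 in homozygous brains, against 4 of 26 and 9 of 19 in heterozygous brains. Of the 17 granule-gene cells, 1 reached 10 UMIs.

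The 38 Il1b-high cells with at least 10 of these UMIs were set beside the 53 with fewer, at like depth (median 3176.5 and 3113 raw UMIs). Cxcl10, a chemokine induced by interferon gamma that attracts T cells, had 3247 CPM against 106 CPM, Gbp2 had 543 CPM against 16.97 CPM and Cd274 (PD-L1) had 213 CPM against 56.6 CPM. Ccl4 had 4388 CPM against 1003 CPM. S100a8 and Retnlg were lower in them, at 20099 and 1612 CPM against 38386 and 6282 CPM, and so was Ifitm1, itself an interferon-stimulated gene, at 2143 CPM against 3265 CPM. Brains are unequally mixed in this split, since heterozygous brain 1 gave 5 of the 38 cells and 25 of the 53. Without it Cxcl10 had 3414 CPM against 99.6 CPM and Ccl4 had 4916 CPM against 1607 CPM. Without heterozygous brain 2 Gbp2 had 344 CPM against 21.4 CPM and Cd274 had 105 CPM against 59.4 CPM. Ccl4 had 2821 CPM against 1042 CPM without homozygous brain 2 and 6004 CPM against 627 CPM without homozygous brain 1.

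**Figure D5:**
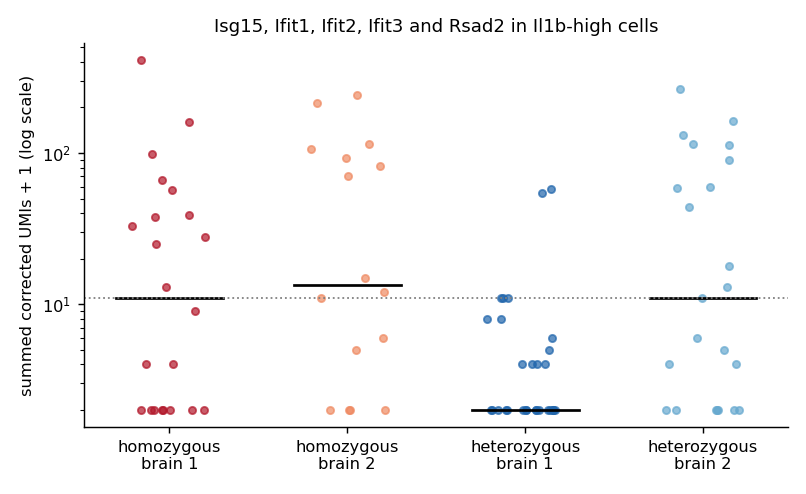
Summed corrected UMIs plus 1 (log axis) of Isg15, Ifit1, Ifit2, Ifit3 and Rsad2 in each Il1b-high cell, by brain, with the median as a black line and the limit of 10 UMIs dotted. In heterozygous brain 1, 5 of 30 cells reach the limit, and in the other 3 brains at least 10 cells each do.

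The remaining lists gave no gene past the threshold, with the same background of 0% called. Of the secondary granule genes 11 were tested and 10 had negative changes, with a median log2 change of -0.58. Camp had a log2 change of -2.78 (SE 1.90, limma adjusted p = 1.00), Ngp of -2.20 and Lcn2 of -0.51, and Wfdc21, a secreted whey acidic protein family member, of -0.58. Without homozygous brain 1 Camp and Ngp had changes of 0.90 and 0.66. They passed the threshold without homozygous brain 2 (changes of -6.46 and -5.07, limma adjusted p = 0.0129 and 0.0173) and without heterozygous brain 1 (changes of -2.96 and -2.44), fits that leave a genotype with 1 brain. The primary granule genes passed the filter on low values through heterozygous brains alone, which fixes their sign, and both Elane-high cells came from heterozygous brain 1. Elane, Prtn3 and Mpo were at 0 in both homozygous brains and in heterozygous brain 2, and had 2351, 1999 and 1018 CPM in heterozygous brain 1. Ctsg (cathepsin G) had 764 and 25.7 CPM in heterozygous brains 1 and 2 and was at 0 in both homozygous brains.

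Calprotectin was lowest in homozygous brain 1. S100a8 had 34334 and 69333 CPM in homozygous brains 1 and 2, against 54422 and 64320 CPM in heterozygous brains 1 and 2 (log2 change -0.28, SE 0.30), and S100a9 had a change of -0.41 (SE 0.31). S100a6 and S100a11, calcium-binding relatives, had changes of 0.21 and -0.04. Within Il1b-high cells S100a8 had 29419 and 23791 CPM in homozygous brains, against 31184 and 35967 CPM in heterozygous brains.

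Receptor, cytokine and oxidase lists held changes of both signs. Of 21 receptor and adhesion genes tested, 12 had positive and 9 negative changes, with a median of 0.04. The most abundant were Clec4e, a sensor of mycobacterial glycolipid, with 1089 CPM in the cluster, the chemokine receptor Ccr1 with 1024 CPM, the decoy receptor Il1r2 with 764 CPM and Csf3r with 698 CPM. Cxcr2 had 439.6 and 368 CPM in homozygous brains, against 364 and 421 CPM in heterozygous brains. Of 12 cytokine and chemokine genes tested, 8 were positive and 4 negative, with a median of 0.22. Il1b had 18718 and 11363 CPM in homozygous brains, against 10291 and 14160.3 CPM in heterozygous brains, and Cxcl2 had a log2 change of 0.29 (SE 0.31). Ccl4 and Ccrl2 had changes of 0.29 and 0.87, and heterozygous brain 1 was the lowest for both. Of the 6 NADPH oxidase genes 3 were positive and 3 negative, with a median of -0.05; Cyba, Rac2 and Ncf1 stood between 324 and 1495 CPM in the cluster.

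Of 13 genes listed for tumour-associated neutrophils, 8 were tested and 4 were positive, with a median of 0.12. Wfdc17 led with 2115 CPM in the cluster, followed by Ptgs2 with 1038 CPM, Cstb with 473 CPM and Mif with 296 CPM, and Arg1 and Tnfrsf10b were at 0 in every neutrophil. Arg1, an arginase that depletes arginine, stood at 66.1 CPM in the monocyte and macrophage cluster. Tertiary granule and secretory genes were all negative (5 tested, median -0.23), among them Lyz2, Slpi (a protease inhibitor), Hp (haptoglobin) and Mmp9 (a gelatinase). Glycolysis and hypoxia genes had a median of 0.08 over 10 tested, with Gapdh, Pkm, Aldoa and Ldha between 521 and 1356 CPM.

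Survival and NF-kappaB genes had a median of 0.05 over 8 tested, led by Nfkbia with 5624 CPM, Mcl1 with 2721 CPM, Zfp36 with 2018 CPM and Nfkbiz with 1129.8 CPM. Granulocyte transcription factors had a median of 0.06 over 10 tested, led by Cebpb with 4914 CPM, Junb with 3944 CPM, Klf2 with 1569.9 CPM and Fos with 1445 CPM. Of 8 proliferation genes 3 were tested, all with negative changes (median -0.09). Hmgb2 and Tubb5 stood at 1153 and 254 CPM and Tuba1b and Stmn1 at 109.6 and 87.5 CPM, and Mki67 was found in 3.57% of neutrophils. These were 2 of 17 granule-gene cells and both Elane-high cells, and 0 of 91 Il1b-high cells.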

How the data were processed

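Single-cell RNA, antibody tags and hashtags were read from brains pooled in 1 preparation. Cell Ranger 3.1, Seurat 3.1.1 and the mm10 build are named per the submitters' processing notes. The authors deposited per cell the raw UMI counts, the number of detected genes, a cluster number and antibody gates (other values), and a table whose values are the natural log of 1 plus a depth-corrected UMI count. Back-transformed, every deposited value was a whole number within a relative tolerance of 1e-06.

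Corrected UMIs were summed per brain over cluster 7 and scaled to a total of 1000000 (CPM). Raw depth in the cluster was 85883 to 228007 UMIs per brain, and 1 corrected UMI was worth 2.50 to 4.33 CPM. These sums are not raw counts, so genotype was tested on log2(CPM + 50) by limma's moderated linear model with a variance trend (limma 3.58.1, R 4.3.3), for genes with a mean above 100 CPM, with Benjamini-Hochberg adjustment at 0.05. The procedure was tested on simulated data. Shares were compared by exact permutation over brains, and intervals cover counting error only. Doublets were not called. Since all brains shared 1 preparation, p-values measure the spread between brains within it.

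Named genes are the 5 markers, Cx3cr1, the 10 highest ratios to other cells above 500 CPM, the 10 smallest p where under 5 genes pass, and the 4 most abundant members of each list, of which 1 is not reported here. Others were chosen after their values were seen. The members and lists were chosen with earlier results of these data known. Alternatives varied the barcodes, pseudocount, filter, scaling, trend, cells and brains. Promoters came from RefSeq (GRCm38.p6), where 244 of 248 symbols matched.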

Additional observations from a re-analysis of the deposited data

Results flagged for a closer look

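Among 71 measures over the 4 metastasis-bearing brains, 7 had 1 brain set apart by Dixon's criterion (its gap to the nearest brain over the whole range), which chance gives in about 1 in 20 groups of 4. Heterozygous brain 1 was the high one for the primary granule genes Elane (2351 CPM), Prtn3 (1999 CPM), Mpo (1018 CPM) and Ctsg (764 CPM), all from the same few cells, and the low one for S100a6 (5415 CPM). Homozygous brain 1 was the low one for Wfdc21 (649 CPM) and the high one for Csf3r (990.1 CPM).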

How the results depend on the processing

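Of 287 alternative values, 256 kept their direction and side of the threshold, or moved by less than the limit set for them. The genotype difference in the neutrophil share stayed negative in 8 of 8 alternatives, from -1.57 to -0.0704 points. They include the myeloid denominator, which repeats the Ptprc one, and the surface gate, chosen after seeing the data. The exact permutation test cannot give a p under 0.333 here, so no alternative could pass the threshold. The difference between metastasis-bearing and naive brains had no stable sign: it was 0.458 points with at least 2 markers, 0.142 points among cells with a Ptprc UMI, 0.759 points by the surface gate (chosen after seeing the data), and -0.232 to 0.133 points with 1 brain left out, where it turned positive without metastasis-bearing homozygous brain 1 (0.0754), metastasis-bearing heterozygous brain 2 (0.00469) or naive heterozygous brain 2 (0.133). The number of genes past the threshold between genotypes was 4 of 10804 with no filter on low values (Ifit2 and Stfa1 higher, Fosb and Mcpt8 lower in homozygous brains), 1 to 22 with 1 brain left out, and 0 in the 11 others, with 36 to 116 genes at an unadjusted p under 0.05. Without homozygous brain 1 the log2 changes of S100a8, S100a9, Camp and Ngp were 0.23, 0.11, 0.90 and 0.66, and without homozygous brain 2 they were -0.78, -0.94, -6.46 and -5.07; the cause was not tested. For the 10 genes with the smallest p, 0 of 157 alternatives turned round. These genes were picked by their p in the same brains, so a kept sign is no support for them. The myeloid denominator, Ptprc clusters in which most cells carry Tyrobp, took in every Ptprc cluster and so was no separate alternative. No paired analysis was possible because the labels give no number that ties a homozygous to a heterozygous brain. Few cells per brain (21 to 38) limit every value, and a single cell can set the level of a rare transcript.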

Other observations

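The authors' gates on Ly6C and Ly6G gave cells of both states without shared barcodes. The gate is labelled Ly6C+Ly6G+ for metastasis-bearing and Ly6CLy6G for naive brains, and whether both used the same limits is not stated. The gates held 124 such cells in metastasis-bearing and 26 in naive brains. Granule-gene cells were here counted among gated cells of any cluster, not only those of cluster 7. Pooled over the brains of a state, 14 gated cells (11.3%) were granule-gene cells in metastasis-bearing brains, against 7 (26.9%) in naive brains. By brain they were 1 of 27, 7 of 30, 2 of 31 and 4 of 36 gated cells in metastasis-bearing homozygous brains 1 and 2 and heterozygous brains 1 and 2, against 1 of 6, 2 of 11 and 4 of 9 in naive homozygous brain 2 and heterozygous brains 1 and 2, so the states overlap. Without metastasis-bearing homozygous brain 2 the share was 7.45% in metastasis-bearing brains, and without naive heterozygous brain 2 it was 17.6% in naive brains. At least 10 Il1b UMIs were found in 116 of 124 cells in metastasis-bearing and 17 of 26 in naive brains. The gate is not made of neutrophils alone. With shared barcodes kept, 74 of its 173 cells in metastasis-bearing brains were in the monocyte and macrophage cluster, and 73 of those 74 held an Il1b UMI. How far the mix of cell types in each gate makes up these shares was not tested. In metastasis-bearing brains the cells with at least 10 Il1b UMIs were 25 of 27 and 28 of 30 (homozygous brains 1 and 2) and 30 of 31 and 33 of 36 (heterozygous brains 1 and 2). In naive brains they were 4 of 6 (homozygous brain 2) and 8 of 11 and 5 of 9 (heterozygous brains 1 and 2). Naive homozygous brain 1 held 0 gated cells, the tables were corrected separately, and no test was made.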
